A study of Mus musculus with 6 samples.

Results

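The small leucine-rich proteoglycans are a family of secreted matrix proteins, and 9 of their genes were examined here among the 54146 genes of the expression table: Dcn, Lum, Bgn, Fmod, Ogn, Aspn, Omd, Prelp and Podn. They were picked by gene name, with their difference between rSLURP1 and rGST already known, so their own values are given as a description without a test. Of the 9 genes, 7 reached 1 TPM in 3 or more libraries, the filter used for testing, and Fmod and Podn did not. RNAseq was carried out on D2A1 cells, an established mouse mammary tumor line, grown as spheroids in Matrigel and given either SLURP1 as a recombinant protein (rSLURP1, 3 libraries) or the control protein GST (rGST, 3 libraries). The labels give 50 nM for each protein, and the study's methods give harvest on day 5. All libraries come from the same cell line, and the labels do not say whether the 3 libraries of a treatment were separate cultures, so the errors below measure the spread between these libraries only. TPM, a transcript abundance corrected for length and scaled to the same total in every library, allows levels to be compared between genes, but the read depth behind a value is unknown. Errors after ± are SDs over the 3 libraries of a treatment for TPM and shares, and standard errors from limma for log2 fold changes, which are on the log2(TPM + 1) scale.

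Proteins of this family have a core of leucine-rich repeats, and most carry chains of chondroitin, dermatan or keratan sulfate that are built on the core in the Golgi. They bind to collagen fibrils and set fibril diameter and spacing, and decorin and biglycan also bind TGF-β and cell surface receptors. In breast tissue decorin and lumican are known mainly as products of fibroblasts in the stroma.

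Several of the genes lie side by side in the mouse genome (GRCm38, GENCODE M21). Dcn (ENSMUSG00000019929.16, chromosome 10, 97479609 to 97518143), Lum (ENSMUSG00000036446.5, 97565128 to 97572703) and the related gene Kera (ENSMUSG00000019932.8, 97606879 to 97613692) are neighbors on the plus strand. On chromosome 13, also on the plus strand, Aspn (ENSMUSG00000021388.14, 49544443 to 49567565), Omd (ENSMUSG00000048368.9, 49582462 to 49592822) and Ogn (ENSMUSG00000021390.6, 49608046 to 49624501) follow each other with gaps of 14.9 and 15.2 kb. All 3 lie inside Cenpp, a centromere protein gene on the opposite strand, but they share no exon bases with it apart from 7 bases of Aspn. Prelp (ENSMUSG00000041577.5, chromosome 1, 133910304 to 133921414, minus strand) and Fmod (ENSMUSG00000041559.7, 134037254 to 134048277, plus strand) are 115.8 kb apart. Bgn (ENSMUSG00000031375.17) is on chromosome X, 73483602 to 73495933, and Podn (ENSMUSG00000028600.15) on chromosome 4, 108014791 to 108096445.

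Promoters are shown for the chromosome 13 neighbors, which were lowered together, and for Bgn, the tested member whose log2 fold change was nearest to 0. Each is written 5′ to 3′ and is the RefSeq window of 300 bases (GRCm38.p6, plus strand) from 250 bases before the transcription start to 50 bases after it, and RefSeq windows were matched for 7 of the 9 genes. Capitals mark matches, on either strand, to the KLF motif CACCC, the core promoter motif TATAAA or the TEAD motif GGAATG. The AP-1 motif TGANTCA and the SMAD motif GTCTG were searched too and are not in these 4 windows. The windows are chr13:49544193-49544492 for Aspn, chr13:49582212-49582511 for Omd, chr13:49607765-49608064 for Ogn and chrX:73483351-73483650 for Bgn.
Aspn: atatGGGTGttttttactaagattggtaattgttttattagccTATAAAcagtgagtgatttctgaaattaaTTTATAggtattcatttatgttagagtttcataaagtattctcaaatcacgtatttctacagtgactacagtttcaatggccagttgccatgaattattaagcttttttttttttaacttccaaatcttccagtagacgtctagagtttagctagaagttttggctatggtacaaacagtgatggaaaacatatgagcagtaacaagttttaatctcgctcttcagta
Omd: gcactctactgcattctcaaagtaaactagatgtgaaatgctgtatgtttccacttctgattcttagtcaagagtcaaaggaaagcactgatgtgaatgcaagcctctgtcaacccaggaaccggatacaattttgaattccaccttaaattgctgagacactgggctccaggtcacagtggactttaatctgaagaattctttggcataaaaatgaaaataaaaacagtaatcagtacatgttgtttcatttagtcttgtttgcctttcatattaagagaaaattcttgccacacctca
Ogn: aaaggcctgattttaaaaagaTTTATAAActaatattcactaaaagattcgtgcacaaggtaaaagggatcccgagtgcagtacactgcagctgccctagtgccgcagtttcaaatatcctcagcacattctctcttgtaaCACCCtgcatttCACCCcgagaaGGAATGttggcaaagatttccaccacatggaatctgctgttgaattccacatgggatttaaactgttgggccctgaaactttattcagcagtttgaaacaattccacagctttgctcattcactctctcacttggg
Bgn: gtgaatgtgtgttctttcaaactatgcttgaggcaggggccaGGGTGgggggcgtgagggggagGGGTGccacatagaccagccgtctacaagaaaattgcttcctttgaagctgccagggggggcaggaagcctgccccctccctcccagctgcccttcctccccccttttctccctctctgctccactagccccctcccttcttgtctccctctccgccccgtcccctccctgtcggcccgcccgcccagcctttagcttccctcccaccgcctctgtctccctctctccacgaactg
The windows of Aspn, Omd and Ogn are poor in G and C (31%, 37.7% and 42.3%), whereas that of Bgn has 63.7%, against a median of 52.7% over all 32851 promoter windows. CACCC is found in the windows of Aspn, Ogn and Bgn, and in 57.5% of all promoter windows. TATAAA is found in Aspn and Ogn and in 13.6% of all windows. The first bases of the matches lie 207 and 178 bases before the transcription start in Aspn. In Ogn they lie 229 and 227 bases before it, where the 2 matches overlap on opposite strands. GGAATG is found in Ogn and in 14.7% of all windows. The Omd window holds none of these letters. For the motifs not found in these windows, the shares of all windows were 7.81% for TGANTCA and 49.6% for GTCTG. Over the windows of all 7 matched genes, GTCTG was found in 3 genes (Fmod, Podn and Prelp), CACCC in 6 and TGANTCA in 0.

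With rGST, D2A1 spheroids expressed 7 of the 9 genes above 10 TPM in every library, and with rSLURP1 all 7 were far lower. The summed TPM of the 9 genes was 1184, 1338 and 1214 in the rGST libraries and 15.85, 21.0 and 18.55 in the rSLURP1 libraries. Between the means, 1245 ± 81.6 and 18.5 ± 2.58 TPM, the ratio was 67.4. Genes at 1 TPM or more numbered 12390 to 12449 in the rGST libraries and 11906 to 11981 in the rSLURP1 libraries. Across genes, the log2(TPM + 1) values of libraries correlated at 0.983 to 0.986 within a treatment and at 0.941 to 0.950 between treatments. Fewer cells of a type and less RNA per cell cannot be told apart in these bulk samples.

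Decorin (Dcn), which binds fibrillar collagen and TGF-β, was the most abundant member with rGST. Its TPM was 519.7, 635.6 and 587.0 with rGST and 5.34, 5.88 and 5.15 with rSLURP1. Every rGST library lay at least 88.4-fold above every rSLURP1 library. By mean TPM, Dcn held rank 218 of all genes with rGST and rank 9447 with rSLURP1. The log2 fold change was -6.49 ± 0.081, on a scale that understates the change of genes with low TPM.

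Lumican (Lum), which regulates the spacing of collagen fibrils, had the lowest log2 fold change of the tested members on the log2(TPM + 1) scale. It was at 170.5, 194.6 and 165.1 TPM with rGST and at 0.58, 1.09 and 1.05 TPM with rSLURP1. The treatments did not overlap, the ratio of the means was 194.9, and the log2 fold change was -6.55 ± 0.12.

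Osteoglycin (Ogn), a small member also known as mimecan, was the second most abundant member with rGST. It was at 253.9, 255.9 and 224.1 TPM with rGST and at 5.70, 7.88 and 6.50 TPM with rSLURP1, a ratio of the means of 36.5 and a log2 fold change of -5.00 ± 0.11. Osteomodulin (Omd), a keratan sulfate proteoglycan of bone, was at 163.6, 173.5 and 163.4 TPM with rGST and at 1.28, 2.03 and 1.79 TPM with rSLURP1. Its ratio of the means was 98.1 and its log2 fold change was -5.97 ± 0.11. Asporin (Aspn), which has an aspartate-rich stretch in place of the chains of decorin and biglycan, was at 27.2, 32.4 and 30.9 TPM with rGST and was listed at 0 in all 3 rSLURP1 libraries. No fold is given for Aspn, since its fitted value depends on the pseudocount, and it passed the filter through its rGST libraries alone. In the chromosome 13 cluster, all 3 tested genes were therefore separated by treatment, and the lowest rGST library of Omd was 80.5-fold above its highest rSLURP1 library.

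Prelp, which anchors basement membrane to the connective tissue below it, was at 33.2, 31.3 and 29.9 TPM with rGST and at 1.10, 2.04 and 1.79 TPM with rSLURP1 (log2 fold change -3.63 ± 0.14). An antisense gene, Gm15851, shares 350 of the 3615 exon bases of Prelp, and it was listed at no more than 0.20 TPM in any library. Biglycan (Bgn), the closest relative of decorin, was at 16.2, 14.3 and 13.1 TPM with rGST and at 1.85, 2.08 and 2.24 TPM with rSLURP1. Its log2 fold change of -2.34 ± 0.11 was the nearest to 0 among the tested members, but its libraries did not overlap between treatments, and the ratio of the means was 7.05.

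Fibromodulin (Fmod), a collagen-binding relative of lumican, was at 0.23, 0.48 and 0.20 TPM with rGST and at 0, 0 and 0.010 TPM with rSLURP1. Podocan (Podn) was listed at no more than 0.030 TPM in any library. At these levels no fold change was computed for either gene.

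**Figure D1:**
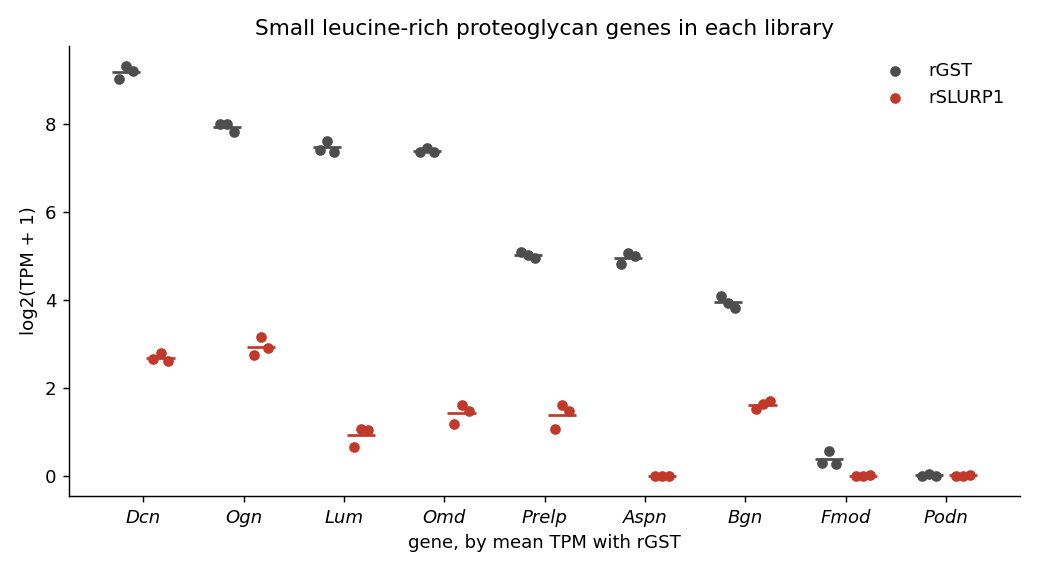
log2(TPM + 1) of the 9 proteoglycan genes in each library (points; rGST gray, rSLURP1 red), with the mean of 3 libraries as a line. The rSLURP1 points lie below all rGST points for every gene but Podn, from Dcn at 519.7 to 635.6 against 5.15 to 5.88 TPM down to Fmod, which was under 0.5 TPM throughout.

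A gene was called lower or higher when the adjusted p-value from limma did not exceed 0.05. All 7 tested members were called at least 2-fold lower, as were 7.06% of the 12301 tested genes. Likewise, the libraries of all 7 did not overlap, which held for 61.7% of tested genes in the lower direction. Because the members were chosen on this contrast, nothing is read from these counts. A log2 fold change of -3 or lower was found for 43 tested genes (0.35%), among them 6 members. Ordered from the lowest log2 fold change of all tested genes, Lum held rank 4, Dcn rank 5, Omd rank 7, Ogn rank 10, Prelp rank 28 and Bgn rank 103. The middle of all tested genes lay at a log2 fold change of -0.33, and scaling each library by the median ratio of its genes moved it to -0.0012. As deposited, 7200 genes were called lower (58.5%) and 1065 higher (8.66%), with 1.15% at least 2-fold higher. Median-ratio scaling gave 3094 lower (25.2%) and 3198 higher (26%), with 3.76% at least 2-fold lower. All 7 members were at least 2-fold lower under this scaling too, from which nothing is read either, with Dcn at -6.16, Lum at -6.29 and Bgn at -2.05.

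**Figure D2:**
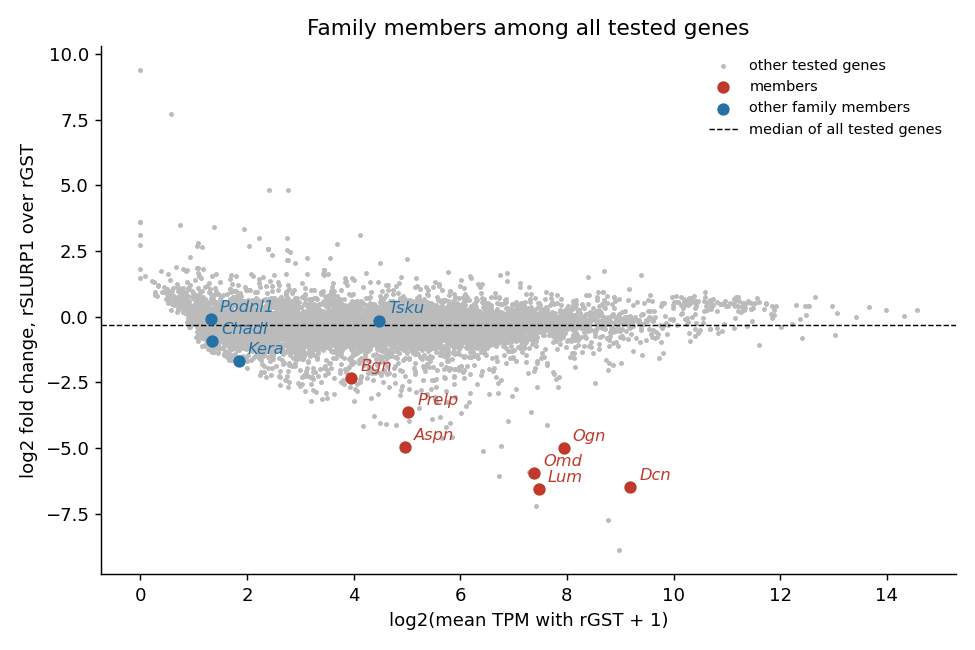
log2 fold change (rSLURP1 over rGST) against log2(mean TPM with rGST + 1) for the 12301 tested genes, with the 7 tested members in red, 4 other family members in blue and the median of all genes dashed. Lum (-6.55) and Dcn (-6.49) lie near the lower edge at high expression, Bgn (-2.34) is the highest of the red points, and the plotted position of Aspn depends on the pseudocount.

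The members differed in the size of their difference, and their order was not the same in both treatments. With rGST the order was Dcn, Ogn, Lum, Omd, Prelp, Aspn, Bgn, Fmod and Podn, in which the libraries of Lum and Omd overlapped, as did those of Prelp and Aspn, and the other neighbors did not. With rSLURP1 Ogn and Dcn came first with overlapping libraries, followed by Bgn, Omd and Prelp, of which Bgn overlapped with Omd and Omd with Prelp, and then by Lum. The share of Dcn in the summed TPM of the 9 genes was 46.6% ± 2.38 with rGST and 29.8% ± 3.36 with rSLURP1. Lum made up 14.2% ± 0.504 and 4.84% ± 1.05, whereas Ogn made up 19.7% ± 1.56 and 36.2% ± 1.26 and Bgn 1.17% ± 0.168 and 11.2% ± 1.15. Omd made up 13.4% ± 0.424 and 9.13% ± 0.914, Prelp 2.53% ± 0.241 and 8.77% ± 1.58, and Aspn 2.42% ± 0.123 and 0%. These shares are relative to the sum in each library. Those of Ogn, Bgn and Prelp were therefore larger with rSLURP1 although the TPM of each gene was lower. Coefficients of variation between libraries ran from 3.47% to 10.6% over the 7 tested members with rGST and from 6.94% to 31.3% with rSLURP1, Aspn left out of the latter.

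**Figure D3:**
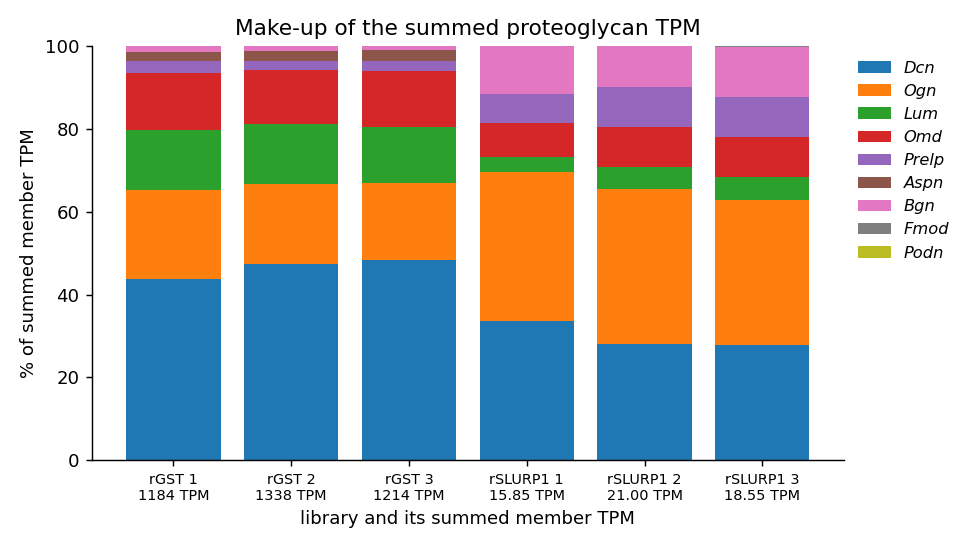
Share (%) of each gene in the summed TPM of the 9 proteoglycan genes, for each library, with the summed TPM under the bar. Dcn takes 43.9% to 48.4% of the bar with rGST and 27.8% to 33.7% with rSLURP1, where the shares of Ogn, Bgn and Prelp are larger and those of Lum, Omd and Aspn smaller.

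The other genes of the family were mixed. Of 9 further genes (Ecm2, Kera, Epyc, Optc, Chad, Nyx, Tsku, Podnl1 and Chadl), 4 were tested and 5 were under 0.5 TPM in every library. Keratocan (Kera), a corneal keratan sulfate proteoglycan and the neighbor of Lum, was at 2.05, 2.74 and 3.00 TPM with rGST and at 0.010, 0.15 and 0.16 TPM with rSLURP1. Kera fell with a log2 fold change of -1.69 ± 0.17. Chadl, a chondroadherin-like gene, fell from 1.54 ± 0.174 to 0.340 ± 0.0656 TPM (log2 fold change -0.92 ± 0.15). Both genes passed the filter through their rGST libraries alone, so they could enter the test only by being higher there, and no p-value is given for them. Tsukushi (Tsku), an inhibitor of BMP and Wnt signaling, was at 21.1, 21.7 and 20.9 TPM with rGST and at 20.1, 18.4 and 18.8 TPM with rSLURP1. Its log2 fold change was -0.15 ± 0.061 (limma, adjusted p = 0.0665), but median-ratio scaling gave 0.19 (adjusted p = 0.0410). Podnl1, a relative of podocan, was at -0.080 ± 0.14 (adjusted p = 0.636 in limma), or 0.13 with median-ratio scaling (adjusted p = 0.467).

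Genes around the members were then examined, in a window of 500 kb on either side of each member's start that was chosen after the data were seen. On chromosome 13, 8 genes outside the family were tested, and their log2 fold changes ran from -0.55 (Nol8) to 0.43 (Iars), with none called at least 2-fold lower or higher. Cenpp, which spans Aspn, Omd and Ogn, was at 3.50, 4.69 and 4.02 TPM with rGST and at 3.08, 2.60 and 3.30 TPM with rSLURP1 (log2 fold change -0.34 ± 0.13, adjusted p = 0.0529 in limma). On chromosome 10 no gene outside the family was tested within the window. On chromosome 1, 12 genes around Prelp and Fmod ran from -1.07 (Zbed6) to 1.15 (Chil1), and Chil1 passed the filter through its rSLURP1 libraries alone. Of the 43 neighbors of all members, 22 were called lower and 7 higher, with 2 at least 2-fold lower and 1, Chil1, at least 2-fold higher. Over all tested genes the shares were 58.5% lower and 8.66% higher, with 7.06% at least 2-fold lower and 1.15% at least 2-fold higher.

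**Figure D4:**
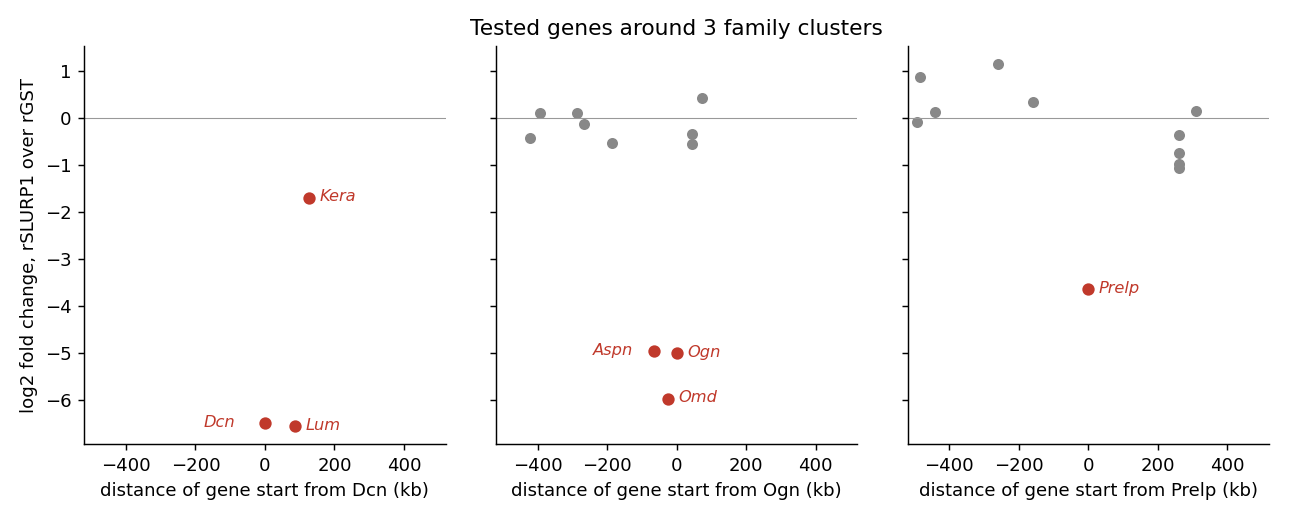
log2 fold change (rSLURP1 over rGST) of tested genes by the distance (kb) of their start from that of Dcn, Ogn or Prelp, along the strand of the named gene. Family genes (red) lie between -6.55 and -1.69, and the neighbors (gray) around Ogn lie between -0.55 and 0.43.

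Genes whose pattern over the 6 libraries was most like that of Dcn and Lum were sought by the distance between log2(TPM + 1) profiles, each centered on its mean. Dcn and Lum were at a distance of 0.35 from each other, and Omd was at 0.71 from Dcn and 0.73 from Lum. The nearest gene outside the 9 was Itgbl1, which encodes an integrin beta-like protein, at 0.65 from Dcn and 0.72 from Lum. It was at 110.9, 109.4 and 92.5 TPM with rGST and at 0.60, 0.52 and 0.62 TPM with rSLURP1. Next came Mfap5, a microfibril protein (0.96 and 0.97), and Apod, a lipocalin (1.53 and 1.49). These distances rest on 6 libraries that fall into 2 treatments.

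Among the collagens that these proteoglycans bind, or that lie on the fibril surface, every tested gene was called lower. Of 12 genes listed, 7 were tested and all 7 were called at least 2-fold lower, against 7.06% of all tested genes, with a median log2 fold change of -1.77. The list was chosen with earlier results of these data known, so nothing is read from this count. Of the 7, 3 (Col1a1, Col6a2 and Col14a1) passed the filter through rGST libraries alone, so they could enter the test only by being higher there. With median-ratio scaling, all 7 were lower and 4 at least 2-fold, against 3.76% of all tested genes. Without any 1 rGST library, 4 were tested and all 4 were called at least 2-fold lower. Col5a1, a chain of fibrils that was by far the most abundant of the list, was at 494.1, 489.0 and 502.2 TPM with rGST and at 206.3, 245.4 and 240.7 TPM with rSLURP1 (log2 fold change -1.10 ± 0.066), a gene named here after its values were seen. With median-ratio scaling Col5a1 was at -0.75, so it was not among the 4 at least 2-fold lower. Col1a1, a chain of the main fibrillar collagen, fell from 8.78 ± 1.15 to 0.327 ± 0.0833 TPM (log2 fold change -2.88 ± 0.14). Col6a1, of the beaded filaments that bind decorin and biglycan, was at -2.45 ± 0.068 (adjusted p = 3.25e-07), and the fibril-surface chain Col12a1 at -1.87 ± 0.21 (adjusted p = 1.85e-04 in limma). Col1a2, Col3a1, Col5a2, Col5a3 and Col11a1 were at no more than 0.69 TPM in any library.

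The list of linkage, chondroitin and dermatan enzymes, which build the sulfated chains, held 24 genes, of which 18 were tested, 15 were called lower and none higher, against 58.5% and 8.66% of all tested genes. Their median log2 fold change was -0.47 against -0.33 over all genes, and with median-ratio scaling 7 were lower and 2 higher, against 25.2% and 26% of all tested genes, with a median of -0.13. Chst15, a sulfotransferase that adds a further sulfate to chondroitin chains, was the only 1 of the 18 at least 2-fold lower, against 7.06% of all tested genes. It was at 45.2, 45.5 and 40.4 TPM with rGST and at 10.8, 10.9 and 11.1 TPM with rSLURP1, a log2 fold change of -1.90 ± 0.066 (adjusted p = 8.22e-07 in limma). Xylt2, which starts the chain on the core protein, was at -0.66 ± 0.059 (adjusted p = 5.79e-05) and Chpf, a chain-polymerizing factor, at -0.67 ± 0.061 (adjusted p = 6.21e-05 in limma). Of 9 keratan sulfate enzymes, 5 were tested, 4 were lower and none was higher or at least 2-fold lower, and 3 were lower with median-ratio scaling, against the same shares of all genes. B4galt1 and B4galt4, galactosyltransferases, and St3gal3, a sialyltransferase, were at -0.92 ± 0.043, -0.73 ± 0.073 and -0.91 ± 0.087. B3gnt7 and Chst4 were listed at 0 in all libraries, and Chst1 and Chst5, sulfotransferases of keratan sulfate, at no more than 0.020 TPM.

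Of the TGF-β system, some of whose ligands decorin and biglycan can bind, 10 genes were expressed above the filter. Of 12 listed, these 10 were tested, of which 6 were lower, 3 of them at least 2-fold, and 1 was higher, against 58.5%, 7.06% and 8.66% of all tested genes. Median-ratio scaling gave 6 lower and 4 higher, against 25.2% and 26% of all tested genes. The ligand Tgfb3 was at 37.6, 37.4 and 38.8 TPM with rGST and at 14.2, 15.01 and 15.9 TPM with rSLURP1, a log2 fold change of -1.28 ± 0.061. Tgfb2, another ligand, was at 2.18, 2.42 and 2.90 TPM with rGST and at 0.43, 0.49 and 0.42 TPM with rSLURP1 (log2 fold change -1.27 ± 0.15), and it passed the filter through rGST libraries alone. Tgfb1 overlapped between treatments, at 48.3, 50.0 and 51.2 TPM with rGST and 45.3, 52.3 and 55.7 TPM with rSLURP1. Its log2 fold change with median-ratio scaling was 0.38 (adjusted p = 0.00420 in limma). Ltbp2, a microfibril-associated latent TGF-β binding protein, was at -1.99 ± 0.21 (adjusted p = 1.30e-04 in limma). Ltbp4, which tethers latent TGF-β to the matrix, was higher by 0.19 ± 0.059 (adjusted p = 0.0223 in limma), and leaving out rGST replicate 1, rGST replicate 2 or rSLURP1 replicate 2 took it past 0.05 (adjusted p = 0.0585, 0.0746 and 0.0589).

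Of 16 other binding partners and receptors, 9 were tested, 8 were lower, 2 of them at least 2-fold, and none was higher, against 58.5%, 7.06% and 8.66% of all tested genes. With median-ratio scaling 6 were lower and 2 higher, against 25.2% and 26% of all tested genes. Wisp1, a matricellular protein that binds decorin and biglycan, was at 26 to 31.2 TPM with rGST and at 5.83 to 6.56 TPM with rSLURP1 (log2 fold change -2.05 ± 0.088, adjusted p = 2.31e-06 in limma). Lrp1, an endocytic receptor that takes up decorin, was at -1.12 ± 0.039, and at -0.76 with median-ratio scaling, and fibronectin (Fn1) was at -0.81 ± 0.036. Of proteases that can cut these proteoglycans and their cofactors, 8 of 13 were tested. Among the 8, 5 were lower, 3 of them at least 2-fold, and 2 higher, against 58.5%, 7.06% and 8.66% of all tested genes. Median-ratio scaling gave 3 lower and 3 higher, against 25.2% and 26% of all tested genes. Htra1, a serine protease, fell from 231.2 ± 18.4 to 45.7 ± 1.62 TPM (log2 fold change -2.31 ± 0.064). Pcolce, which enhances procollagen processing, and Mmp14, a membrane-bound metalloproteinase, were at -1.40 ± 0.048 and -1.10 ± 0.035, whereas the collagenase Mmp13 rose from 13.3 ± 1.51 to 38.6 ± 7.57 TPM (log2 fold change 1.46 ± 0.15, adjusted p = 1.07e-04 in limma). Adamts4, an aggrecanase, was higher by 0.37 ± 0.059 (adjusted p = 0.00103 in limma).

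Other proteoglycan core proteins gave a median log2 fold change of -0.28. Of 25 listed, 11 were tested, 6 were lower and 2 higher, against 58.5% and 8.66% of all tested genes. With median-ratio scaling 3 were lower and 5 higher, against 25.2% and 26% of all tested genes. None of the 11 was called at least 2-fold lower, against 7.06% of all tested genes, and nothing is read from this count. The largest decrease among those tested was that of perlecan (Hspg2), from 96.4 ± 4.84 to 50.4 ± 2.07 TPM (log2 fold change -0.92 ± 0.054). Versican (Vcan), which did not pass the filter, was at 1.61, 1.52 and 0.61 TPM with rGST. With rSLURP1 it was at 0.25, 0.30 and 0.27 TPM. Agrin (Agrn) was at -0.59 ± 0.049 and syndecan-2 (Sdc2) at -0.63 ± 0.12, the latter at -0.31 (adjusted p = 0.0501 in limma) with median-ratio scaling. Lubricin (Prg4) rose from 1.13 ± 0.439 to 5.64 ± 0.933 TPM (log2 fold change 1.65 ± 0.19, adjusted p = 1.75e-04 in limma), and Cd44 was higher by 0.37 ± 0.063 (adjusted p = 0.00137 in limma).

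**Figure D5:**
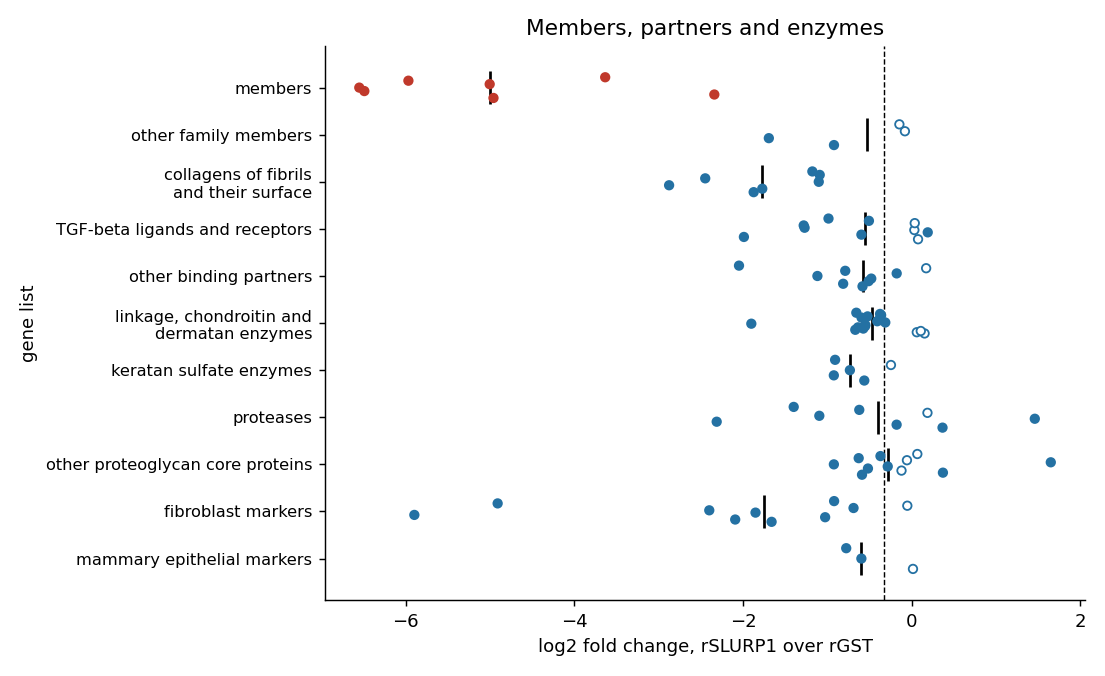
log2 fold change (rSLURP1 over rGST) of tested genes in each list, filled where the gene was called lower or higher, with the list median as a bar and the median of all tested genes (-0.33) dashed. The members lie between -6.55 and -2.34, the collagens have a median of -1.77 and the linkage, chondroitin and dermatan enzymes one of -0.47; Aspn depends on the pseudocount.

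The labels call D2A1 a mammary tumor cell, and most of its epithelial markers were absent or near 0. Of 10 such markers 3 were tested, of which Krt8 and Trp63 were called lower, against 58.5% of all tested genes. Krt8 passed the filter through its rGST libraries alone. With median-ratio scaling 1 was lower and 1 higher, against 25.2% and 26% of all tested genes, and Krt8 was not called (adjusted p = 0.0554 in limma). The summed TPM of the 10 markers was 197.1 to 204.7 with rGST and 198.7 to 203.04 with rSLURP1. Epcam, Krt5, Krt14 and Esr1 were listed at 0 in all libraries and Cdh1 at no more than 0.070 TPM, whereas Krt18 was at 191.1, 196.8 and 199.1 TPM with rGST and overlapped with the rSLURP1 libraries at 196.0, 197.7 and 199.4. With median-ratio scaling the log2 fold change of Krt18 was 0.37 (adjusted p = 1.07e-04 in limma). Fibroblast markers were in part expressed. Of 14 fibroblast markers 10 were tested, 9 were lower, none was higher and 7 were at least 2-fold lower, against 58.5%, 8.66% and 7.06% of all tested genes. With median-ratio scaling 9 were lower and 1 higher, against 25.2% and 26% of all tested genes. Among these markers Dpt and Clec3b passed the filter through rGST libraries alone. Without rGST replicate 2, 8 were tested and 4 were at least 2-fold lower. The summed TPM of the 14 fibroblast markers ranged from 3339 to 3520 with rGST and from 2124 to 2309 with rSLURP1. The largest parts of it were S100a4 (1495 ± 52.4 TPM with rGST and 1443 ± 94.1 with rSLURP1) and Vim (1259 ± 78.4 and 665 ± 30.3). Mfap5, at 152.2, 165.7 and 147.6 TPM with rGST, was at 1.48, 1.12 and 2.41 TPM with rSLURP1, and Serpinf1, a secreted serpin, fell from 108.2 ± 5.15 to 2.63 ± 0.206 TPM. Pdgfra was at -1.85 ± 0.055, Pdgfrb at -2.40 ± 0.069, Fbln1 at -1.03 ± 0.050, Vim at -0.92 ± 0.055 and Pi16 at -0.69 ± 0.074, whereas S100a4 was at -0.052 ± 0.054 (adjusted p = 0.417 in limma), or 0.30 with median-ratio scaling. Thy1, Cd34 and Fap were at no more than 0.77 TPM in any library. The part of these markers in the differences of the proteoglycans was not tested. Of 8 immune markers, Adgre1, Itgam, Cd3e and Nkg7 were listed at 0 in all libraries, and Cd68, a lysosomal protein, was the only one tested, at 3.57 to 4.07 TPM with rGST and 7.75 to 10.6 with rSLURP1. All 6 endothelial markers were at no more than 1.02 TPM.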

How the data were processed

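RNAseq of D2A1 spheroids in Matrigel was used in 6 libraries, grouped by sample title into rSLURP1 (3) and rGST (3). Per the labels' processing notes, the authors used bcl2fastq 2.20, Cutadapt 1.18, STAR 2.5.2b on mm10 and RSEM 1.3.3, and they deposited TPM per gene with no pooling. The study's methods state other versions of Cutadapt and RSEM, GENCODE M12 and Smart-seq2 libraries, whereas the labels name a TruSeq mRNA kit. Whether strand was used is not given in the sources used here, so reads of overlapping antisense genes may not have been told apart. Depth is unknown.

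The 12301 genes that reached 1 TPM in 3 or more libraries were fitted as log2(TPM + 1) in limma 3.58.1 (R 4.3.3, eBayes with trend, no block, Benjamini-Hochberg adjustment), and called where the adjusted p-value did not exceed 0.05. Coordinates are from GENCODE M21, on the same genome build, in which all 9 gene identifiers matched with their version. The fit was tested on simulated data. Members, lists and motifs were chosen with earlier results of these data known. Besides the members and the other family genes, the text names up to 3 lowered and 3 raised genes of each list that were separated by treatment, markers reaching 10 TPM, and the 3 nearest profiles to Lum and Dcn. Exceptions, chosen after their values were seen, are Col5a1, Tgfb1, Krt8, Trp63, Vcan, the neighbors of the clusters and genes named for low levels. Values of single genes around Bgn are not reported here. Alternatives were a pseudocount of 0.1, other filters, scaling by median ratios or quantiles, removal of mitochondrial genes, eBayes without trend, a replicate block and leaving out each library.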

Additional observations from a re-analysis of the deposited data

How the results depend on the processing

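The 7 tested members had a log2 fold change of -1.95 or lower in each of the 93 values that the alternatives gave them. Because the members were chosen on this contrast, this is a description and not a test. Without any 1 rGST library Aspn was not tested, which left 6 members, and with the filter in all libraries Aspn and Lum were not, which left 5. Their median log2 fold change, -5.00 as deposited, was -6.56 with a pseudocount of 0.1, -4.78 with median-ratio scaling, -4.77 with quantile normalization and -5.52 to -4.96 with each library left out, and it includes Aspn, whose value depends on the pseudocount.

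Genes called ranged from 6016 to 8265 and at least 2-fold from 730 to 1429. The larger count came with a pseudocount of 0.1. A block for the replicate number gave 7962 called genes, 1013 at least 2-fold. No call of a member, another family gene or a gene named by rule changed with it. Correlations of same-numbered libraries' deviations were -0.056, -0.034 and -0.061, so the numbers were not taken to pair the libraries. No library correlated best with its own number.

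At least 2-fold lower were 2 other family members with a pseudocount of 0.1 and 0 with the filter in all libraries (1 as deposited; 0 to 1 with each library left out, 0 without any 1 rGST library). The collagens gave 3 with that filter, 4 with median-ratio scaling, 4 with quantile normalization and 4 to 7 with each library left out (4 of 4 tested without any 1 rGST library). Counts were 1 for the TGF-β list with quantile normalization, 1 for other binding partners with median-ratio scaling and 2 for epithelial markers with a pseudocount of 0.1. Fibroblast markers gave 4 to 7 with each library left out, the lowest without rGST replicate 2. The filter and fewer libraries removed genes from the test; for the other settings the cause was not tested.

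Log2 fold changes reversed for Tsku (0.19 and 0.24) and Podnl1 (0.13 and 0.24) with median-ratio scaling and quantile normalization, for S100a4 (0.30) with median-ratio scaling and for Krt18 (0.015 as deposited, -0.0017 to 0.028 with each library left out) without rGST replicate 1. Over the tested members, the tested other family genes, the genes named by rule and all alternatives, 643 values kept direction and call. Among the rest, 5 became weaker, 4 stronger and 6 reversed. Genes named after their values were seen are not in this tally. With median-ratio scaling, Krt8 lost its call and Tgfb1 gained one (adjusted p = 0.0554 and 0.00420 in limma). Zbed6 was at -0.78 with that scaling, less than 2-fold lower. What read depth limits for genes near 0 TPM could not be assessed from TPM.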
